A study of Homo sapiens with 6 samples.

Results

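DNA replication in T-24, a long-established line of human bladder cancer cells, was followed through the transcripts of 46 genes that build the replication machinery: the origin recognition complex, the loaders of the MCM helicase, the helicase itself, its firing factors, the sliding clamp and clamp loader, the replicative polymerases, the single-strand binding protein RPA and the enzymes of Okazaki fragment processing. The genes were listed by symbol from this biology, with earlier results of these data known. All 46 were found among the 38557 gene symbols of the deposited tables. Poly(A) RNA was sequenced from T-24 cells treated for 48 h with 1 µM CCT068127 (3 libraries) and from T-24 cells treated for 48 h with the vehicle DMSO (3 libraries), which the labels describe as biological replicates from independent experiments. CCT068127 inhibits cyclin-dependent kinases and is known for its action on CDK2 and CDK9. The labels name no genetic change, both arms are this single line, and no untreated cells, other doses or other times were analysed here.

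Replication starts in 2 steps that the cell keeps apart in time. In G1 phase the origin recognition complex (ORC), CDC6 and CDT1 place inactive MCM2 to MCM7 rings on DNA, which licenses the origin, and geminin (GMNN) blocks CDT1 once S phase has begun. The kinase CDC7 with its activator DBF4, together with RECQL4 and TICRR, then helps to add CDC45 and the GINS complex to each ring. This gives the CMG helicase that unwinds the fork, and MCM10 helps the assembled helicase to start moving. RPA coats the exposed strand, polymerase alpha-primase lays primers, the RFC clamp loader sets the PCNA clamp, polymerases delta and epsilon extend the strands, and FEN1, DNA2 and LIG1 finish the lagging strand. Many of these genes are known targets of E2F transcription factors, which drive S-phase genes.

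Promoter sequences are given first, as a feature that the list of members did not use. The RefSeq promoter table (GRCh38.p14, 250 bases before to 50 bases after an annotated start) held 38 of the 46 genes, in 49 windows. POLD3, RPA2, RECQL4, MCM5, RPA3, MCM4, GINS4 and DNA2 had no entry. Of the words searched on both strands, TTTCCCGC, TTTCGCGC, TTTGCCGC and TTTGGCGC are forms of the E2F element and may overlap one another, CCAAT is the word bound by NF-Y, and TTTGAA is the word of the cell cycle homology region known from promoters of mitotic genes. The sequences printed were picked by the measured changes, and are those of the genes with the highest and the lowest fold change in ORC (ORC1, ORC2), the MCM hexamer (MCM2, MCM6) and the clamp and clamp loader (RFC2, RFC1), and the highest in MCM loading (CDC6) and Okazaki processing (FEN1). Each is printed 5′ to 3′ on the strand of its gene, with E2F words in capitals, as lower-case sequence otherwise. ORC1 lay at chr1:52404374-52404673 (minus strand), ORC2 at chr2:200963611-200963910 (minus), CDC6 at chr17:40287629-40287928 (plus) and MCM2 at chr3:127598161-127598460 (plus). MCM6 lay at chr2:135876394-135876693 (minus), RFC2 at chr7:74254350-74254649 (minus), RFC1 at chr4:39366313-39366612 (minus) and FEN1 at chr11:61792661-61792960 (plus).
ORC1: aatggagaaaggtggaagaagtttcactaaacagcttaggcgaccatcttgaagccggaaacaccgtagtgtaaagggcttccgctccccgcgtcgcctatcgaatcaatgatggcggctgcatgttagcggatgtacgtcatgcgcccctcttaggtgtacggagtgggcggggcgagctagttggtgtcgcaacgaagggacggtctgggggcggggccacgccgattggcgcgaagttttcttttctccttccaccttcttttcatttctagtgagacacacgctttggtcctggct
ORC2: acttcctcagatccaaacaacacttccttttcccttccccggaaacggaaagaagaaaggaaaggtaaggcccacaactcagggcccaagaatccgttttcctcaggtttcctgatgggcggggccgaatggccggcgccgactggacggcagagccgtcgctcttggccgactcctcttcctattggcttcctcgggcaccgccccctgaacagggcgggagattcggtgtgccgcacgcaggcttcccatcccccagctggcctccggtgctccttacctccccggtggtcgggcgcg
CDC6: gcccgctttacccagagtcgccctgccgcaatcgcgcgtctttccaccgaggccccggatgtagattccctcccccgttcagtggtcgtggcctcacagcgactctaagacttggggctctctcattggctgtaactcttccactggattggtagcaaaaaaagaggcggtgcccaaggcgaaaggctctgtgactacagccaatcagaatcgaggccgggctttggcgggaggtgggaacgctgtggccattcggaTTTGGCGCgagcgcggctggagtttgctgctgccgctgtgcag
MCM2: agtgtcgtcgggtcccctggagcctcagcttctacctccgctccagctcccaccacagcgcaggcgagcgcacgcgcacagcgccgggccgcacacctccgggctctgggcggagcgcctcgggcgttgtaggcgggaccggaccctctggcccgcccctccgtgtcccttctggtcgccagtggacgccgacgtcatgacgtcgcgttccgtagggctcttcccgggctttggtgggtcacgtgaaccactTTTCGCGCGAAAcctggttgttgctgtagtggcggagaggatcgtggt
MCM6: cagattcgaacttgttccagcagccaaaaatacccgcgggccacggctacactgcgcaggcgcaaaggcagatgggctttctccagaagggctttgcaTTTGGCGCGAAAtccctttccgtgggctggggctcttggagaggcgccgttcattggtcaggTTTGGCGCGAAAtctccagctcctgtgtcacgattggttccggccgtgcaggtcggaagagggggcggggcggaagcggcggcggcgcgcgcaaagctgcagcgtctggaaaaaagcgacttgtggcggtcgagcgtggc
RFC2: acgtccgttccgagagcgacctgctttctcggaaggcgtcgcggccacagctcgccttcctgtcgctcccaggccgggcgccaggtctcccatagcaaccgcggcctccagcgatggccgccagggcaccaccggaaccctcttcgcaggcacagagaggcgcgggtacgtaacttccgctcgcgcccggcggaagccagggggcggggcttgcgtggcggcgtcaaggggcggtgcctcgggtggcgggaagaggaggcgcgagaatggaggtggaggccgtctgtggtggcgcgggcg
RFC1: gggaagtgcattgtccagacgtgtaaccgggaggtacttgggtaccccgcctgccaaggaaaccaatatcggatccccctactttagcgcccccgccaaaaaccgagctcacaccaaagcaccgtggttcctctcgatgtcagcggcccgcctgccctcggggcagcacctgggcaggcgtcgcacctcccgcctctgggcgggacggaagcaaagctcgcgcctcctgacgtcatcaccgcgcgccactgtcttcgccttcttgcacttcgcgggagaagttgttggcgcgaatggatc
FEN1: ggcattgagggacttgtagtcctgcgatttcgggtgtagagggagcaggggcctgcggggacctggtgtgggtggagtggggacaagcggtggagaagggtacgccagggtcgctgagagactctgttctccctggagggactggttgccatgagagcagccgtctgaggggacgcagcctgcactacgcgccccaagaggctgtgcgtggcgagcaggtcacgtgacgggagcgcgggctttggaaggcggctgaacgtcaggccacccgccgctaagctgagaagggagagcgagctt

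In MCM2 and MCM6 each run of capitals joins overlapping words of both strands, and MCM6 held such a run at 2 places. CDC6 held a single word just after its start. ORC1, ORC2, RFC2, RFC1 and FEN1 held none of these exact words in the windows printed. Looser forms of the E2F element were not searched, so their absence is not shown.

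Replication machinery transcripts were broadly higher after CCT068127. Levels are given as CPM, the counts of a gene relative to the total of its library, scaled by TMM, a factor that sets the bulk of genes equal between libraries, and differences as fold changes from an edgeR quasi-likelihood fit over all 13597 genes that passed the filter on low counts, with an adjusted p under 0.05 as the threshold. All 46 members passed the filter. Of them, 40 rose (87.0%), against 31.9% of all tested genes, and 2 fell (ORC2 and ORC4), against 32.8% of all tested genes. ORC3, ORC5, DBF4 and RFC1 did not pass the test. The median log2 fold change of the members was 1.40, a 2.64-fold difference, beside -0.050 over all tested genes, and the middle of the distribution ran from 0.94 to 2.08 (quartiles). Among the members that rose, 34 rose at least 2-fold, against 15.5% of all tested genes, and 13 rose more than 4-fold, against 6.53% of all tested genes. In bulk RNA, more cells carrying a transcript, more of it per cell and less of other transcripts cannot be told apart. CPM is relative to the library, so absolute amounts of a transcript are not given by it.

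The groups were also separate library by library. In 40 members all 3 treated libraries lay above all 3 DMSO libraries, against 33.3% of all tested genes, and in ORC2 and ORC4 all lay below, against 36.0% of all tested genes. The other 4 members overlapped between the groups in CPM, and they are those that did not pass the test. In the deposited TPM (transcripts relative to the library after correction for length), 37 members lay wholly above the controls, against 18.7% of all tested genes, and 5 wholly below (ORC2, ORC3, ORC4, ORC5 and RFC1), against 57.5% of all tested genes. CDC7, DBF4, RFC5 and POLD2 overlapped in TPM.

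**Figure D1:**
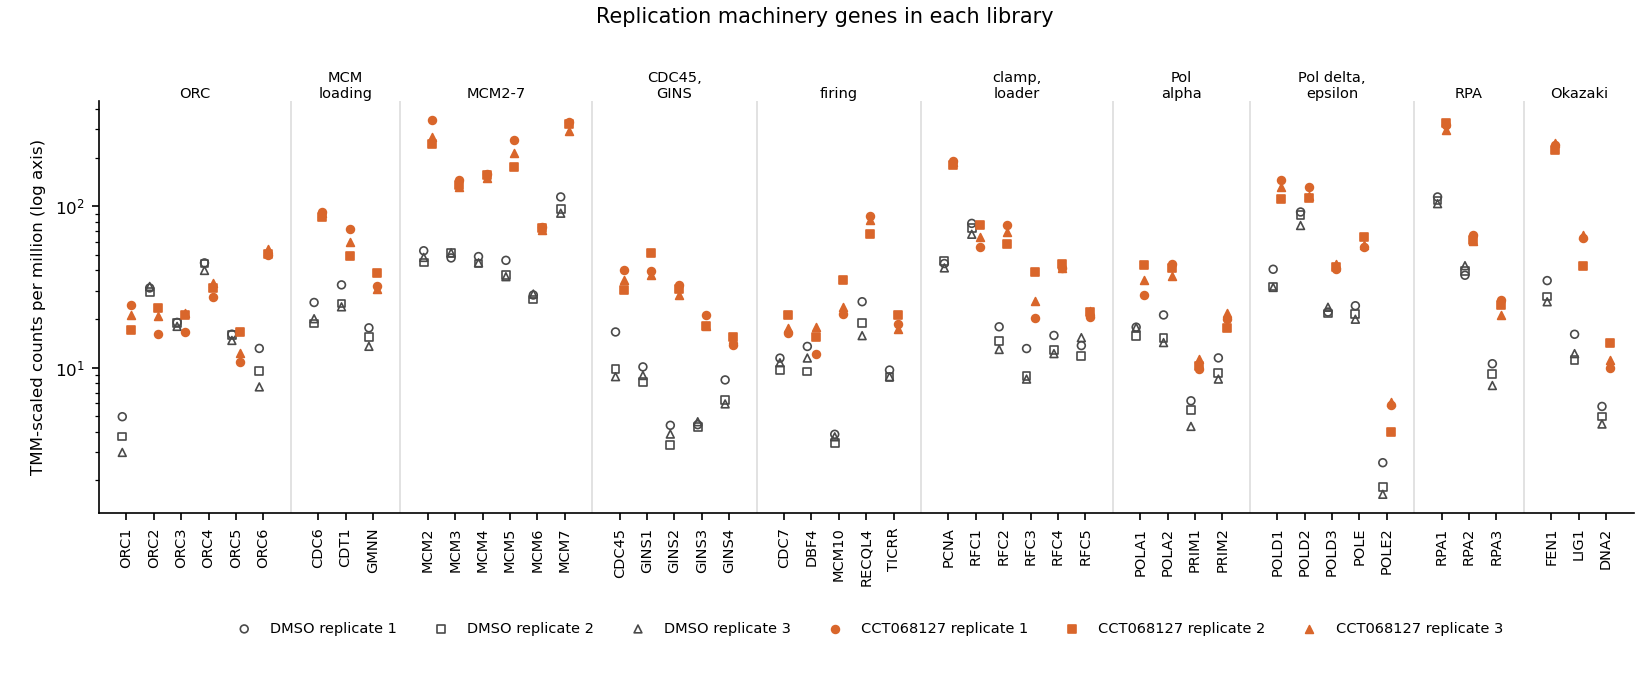
TMM-scaled CPM (log axis) of the 46 genes in each of the 6 libraries, grouped by role, with open black symbols for the 3 DMSO and filled orange symbols for the 3 CCT068127 libraries (circle, square and triangle for replicates 1, 2 and 3). The orange symbols lie above the black ones in 40 genes, below them in ORC2 and ORC4, and among them in ORC3, ORC5, DBF4 and RFC1.

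Library depth was uneven. DMSO replicates 1 and 2 held 371044040 and 411097626 counts, and the other 4 libraries between 1966742 and 5955296, so depth differed with the group. The lowest count of any member was 7 (POLE2 in CCT068127 replicate 2), and 6 members had fewer than 30 counts in that library. With DMSO replicates 1 and 2 thinned at random to the total of DMSO replicate 3, the same 40 members rose and the same 2 fell. DMSO replicate 1 stood apart from the other controls, with the highest CPM of the 3 DMSO libraries in 38 of 46 members (82.6%), against 38.0% of all tested genes, and with a median member log2 level 0.28 above the other DMSO libraries. Without it, 41 members rose, and the additional one was DBF4. Scaling the same counts by library totals alone moved all tested genes, to a median log2 fold change of -0.36. Over all genes, 4333 rose and 4460 fell with TMM, and 2999 rose and 6581 fell with library totals. A limma fit on log2(TPM + 1), which differs from the edgeR fit in its test, filter, length correction and pseudocount as well as in scaling, had a median of -0.46, with 2474 genes higher and 7472 lower of 14394. Relative to the median of all genes in the same fit, the members' median stood 1.45 higher with TMM and with library totals, 1.34 higher on log2(TPM + 1), 1.64 higher without the filter on low counts and 0.92 higher on log2(TPM + 1) without a filter. The 18 epithelial and urothelial markers summed to 3986 to 5148 TPM in DMSO and to 5370 to 6819 TPM in treated libraries, carried by the keratins of simple epithelia. Of the 9 that were tested, 5 rose (KRT7, KRT8, KRT18, KRT19 and KRT14, the last from near 0) and 3 fell (GATA3, log2 -2.18, PPARG, log2 -0.89, and FOXA1, log2 -0.81), while 7 of the 18, CDH1 and UPK3A among them, were below 1 TPM in all 6 libraries. The summed level of 5 leukocyte markers was 5.48 to 9.53 TPM in DMSO and 45.0 to 47.3 TPM in treated libraries, carried by CD68, while PTPRC and CD3E were below 1 TPM throughout. That of 7 fibroblast markers was 11.2 to 14.8 TPM in DMSO and 2.0 to 2.65 TPM in treated libraries, carried by PDGFRB, with DCN and LUM at 0. The 4 endothelial markers summed to 4.66 to 5.67 TPM in DMSO and 2.26 to 5.09 TPM in treated libraries. The part of these depth and marker differences in the results was not tested.

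**Figure D2:**
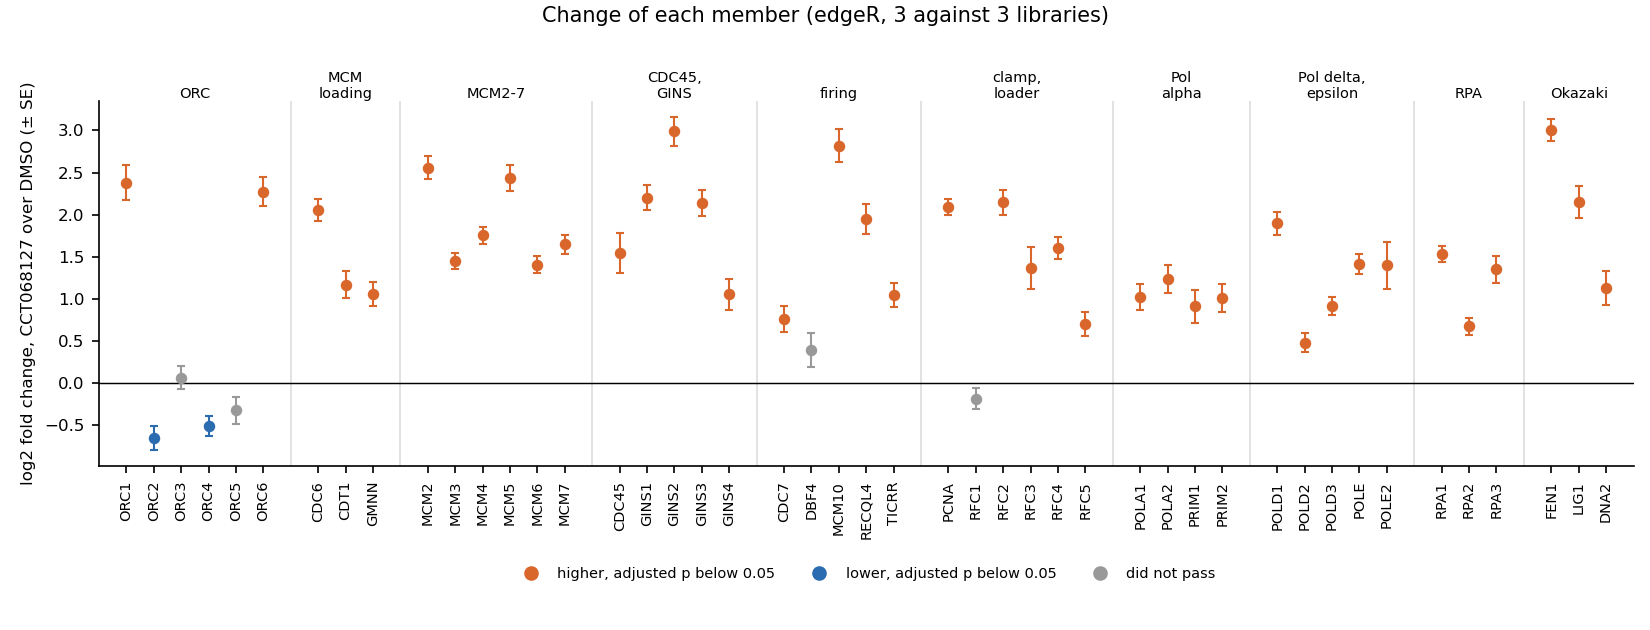
Log2 fold change of each of the 46 genes, CCT068127 over DMSO, with its standard error (edgeR, 3 against 3 libraries), grouped by role and coloured by whether the gene rose, fell or did not pass at an adjusted p of 0.05. Values run from -0.65 (ORC2) to 3.0 (FEN1), and with TMM scaling ORC2, ORC4, ORC5 and RFC1 lie below 0, joined by ORC3 with library totals.

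The origin recognition complex did not move as a unit. Its members ORC1 and ORC6 rose, ORC2 and ORC4 fell, and ORC3 and ORC5 did not pass, with a median log2 fold change of -0.13 over the 6 genes. ORC1, the ATPase subunit whose supply is tied to the cell cycle, was measured at 4.96, 3.73 and 2.98 CPM in DMSO replicates 1 to 3 and at 24.6, 17.1 and 21.2 CPM in CCT068127 replicates 1 to 3. The groups did not overlap, and ORC1 rose 5.21-fold (log2 2.38 ± 0.21 SE, adjusted p = 3.77e-06). ORC6, the small subunit that binds the rest of the complex most loosely, went from 13.1, 9.54 and 7.59 CPM to 49.6, 50.7 and 54.0 CPM, and rose 4.83-fold (log2 2.27 ± 0.18 SE, adjusted p = 1.38e-06). Its treated libraries lay close together, and its DMSO libraries were spread by the high value of replicate 1.

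The core subunits ORC2 to ORC5 behaved otherwise, with a median log2 fold change of -0.41. ORC2, a core subunit that pairs with ORC3, stood at 31.2, 29.5 and 31.8 CPM in the DMSO libraries and at 16.2, 23.3 and 21.0 CPM in the treated ones. All treated values were lower, and ORC2 fell 1.57-fold (log2 -0.65 ± 0.14 SE, adjusted p = 0.00199). ORC4, another ATPase-fold subunit, stood at 44.6, 44.3 and 40.0 CPM and 27.2, 31.3 and 33.3 CPM, and fell 1.42-fold (log2 -0.51 ± 0.12 SE, adjusted p = 0.00358). Here too no treated library reached a DMSO library. ORC3 values were 19.1, 18.8 and 18.0 CPM in DMSO and 16.7, 21.1 and 21.7 CPM in treated libraries, with the treated values on both sides of the controls (log2 0.061 ± 0.14 SE, adjusted p = 0.81). ORC5 values were 16.1, 15.9 and 14.7 CPM and 10.8, 16.5 and 12.3 CPM, where treated replicate 2 lay above every control and the other two below (log2 -0.32 ± 0.16 SE, adjusted p = 0.105). ORC5 passed as lower with library totals (log2 -0.64, adjusted p = 0.00531), without the filter on low counts (log2 -0.57, adjusted p = 0.0175), on log2(TPM + 1) (log2 -0.67, adjusted p = 0.0027 in limma) and without treated replicate 2, the shallowest library (log2 -0.48, adjusted p = 0.0166). ORC3 passed as lower on log2(TPM + 1) (log2 -0.39, adjusted p = 0.0424 in limma), where its groups did not overlap, but not on the same scale without a filter (adjusted p = 0.0847). Its log2 fold change was also negative, without passing, with library totals (-0.25, adjusted p = 0.128 in edgeR), without the filter on low counts (-0.18, adjusted p = 0.511) and without treated replicate 3 (-0.049, adjusted p = 0.801).

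Per transcript length, the order of the ORC subunits differed between the groups. In TPM, ORC4 was the highest subunit in all 3 DMSO libraries (23.6, 21.5 and 19.9) and ORC1 the lowest (3.40, 2.50 and 2.02), whereas ORC6 was the highest in all 3 treated libraries (47.1, 52.5 and 55.9). The treated levels of the other subunits were then close together: ORC1 stood at 11.7, 8.39 and 10.5, ORC2 at 6.87, 10.9 and 9.98 and ORC3 at 9.65, 13.2 and 13.6 TPM, and their neighbours in the order changed from library to library. The TPM ratio of ORC1 to the mean of ORC2 to ORC6 was 0.178, 0.145 and 0.121 in DMSO and 0.685, 0.415 and 0.516 in treated libraries. The ratio of ORC6 to the mean of ORC2 to ORC5, chosen after its values were seen, was 0.974, 0.769 and 0.698 in DMSO and 4.91, 4.33 and 4.86 in treated libraries. Neither ratio overlapped between the groups. For the ORC6 ratio this follows from the single levels, since ORC6 lay wholly above and ORC2 to ORC5 wholly below the controls in TPM. A ratio within a library does not depend on how libraries are scaled. Summed over the 6 subunits, ORC transcripts stood at 91.1 ± 7.02 TPM in DMSO and 106 ± 8.05 TPM in treated libraries (mean ± SD, n = 3).

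All 3 genes of MCM loading rose. CDC6, the ATPase that joins ORC to recruit the rings, went from 25.3, 18.8 and 20.1 CPM in DMSO to 92.2, 85.4 and 90.6 CPM in treated libraries. That is a 4.16-fold rise with no overlap (log2 2.06 ± 0.13 SE, adjusted p = 4.53e-07). CDT1, the carrier of the MCM ring, rose 2.24-fold, from 27.1 ± 4.76 to 60.5 ± 11.2 CPM (mean ± SD, n = 3). Geminin (GMNN), the protein that inhibits CDT1, was measured at 17.6, 15.5 and 13.5 CPM in DMSO and 31.9, 38.7 and 30.7 CPM in treated libraries, and rose 2.08-fold (log2 1.06 ± 0.14 SE, adjusted p = 7.36e-05). Inhibitor and target thus both rose. Their TPM ratio, GMNN over CDT1, was 1.22, 1.40 and 1.25 in DMSO and 0.998, 1.81 and 1.17 in treated libraries, and the treated ratios lay on both sides of the controls.

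Every subunit of the MCM hexamer rose (median log2 fold change 1.70). The largest rise was that of MCM2, a subunit that also holds histones, from 53.0, 44.8 and 48.2 CPM in DMSO to 343, 244 and 269.8 CPM in treated libraries, 5.89-fold (log2 2.56 ± 0.14 SE, adjusted p = 1.64e-07). MCM5, which forms the gate of the ring with MCM2, rose 5.39-fold, from 40.1 ± 5.31 to 216 ± 41.8 CPM. MCM6, the smallest rise of the ring, went from 28.2, 26.5 and 28.6 CPM to 74.5, 73.4 and 71.7 CPM, 2.65-fold (log2 1.41 ± 0.099 SE, adjusted p = 7.71e-07). MCM6 varied little among the replicates of either group, and its groups were far apart all the same. MCM4 rose 3.37-fold, MCM7 3.13-fold and MCM3 2.74-fold. Every subunit lay wholly above the controls in CPM, as did 33.3% of all tested genes.

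The ring subunits sit in equal number in the assembled helicase, but their transcript levels were unequal. In TPM the order MCM7, MCM3, MCM2, MCM5, MCM4, MCM6 from high to low held in each DMSO library. In each treated library the order was MCM7, MCM2, MCM5, MCM3, MCM4, MCM6, so MCM2 and MCM5 passed MCM3. MCM3 stood at 35.3, 37.0 and 37.9 TPM in DMSO and 71.8, 68.5 and 67.8 TPM in treated libraries. MCM5 stood at 30.6, 24.5 and 23.9 TPM and 120.2, 87.0 and 101 TPM. The ratio of the highest to the lowest subunit, MCM7 over MCM6, was 6.17, 5.50 and 4.80 in DMSO and 6.86, 6.74 and 6.30 in treated libraries, with every treated ratio above every control. The summed level of the 6 subunits was 219 ± 17.8 TPM in DMSO and 582 ± 40.8 TPM in treated libraries (mean ± SD, n = 3).

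**Figure D3:**
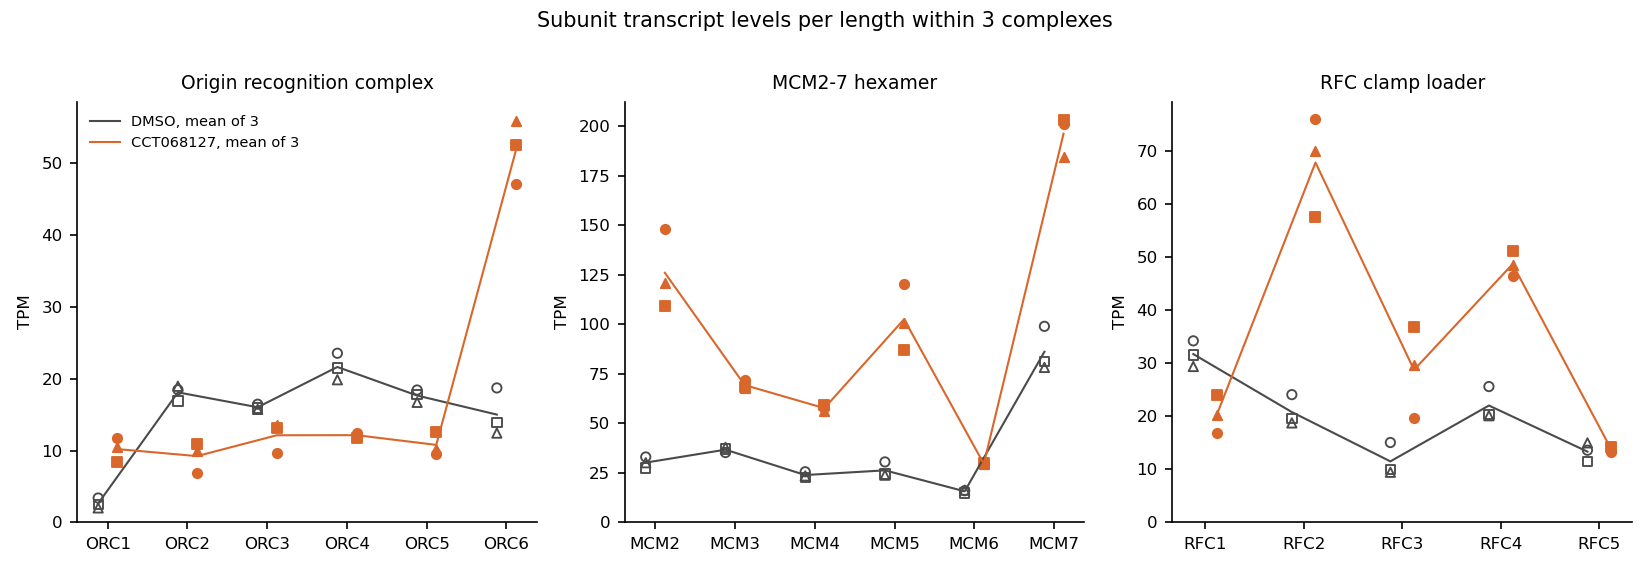
Deposited TPM of the subunits of 3 complexes in each library (open black, DMSO; filled orange, CCT068127; circle, square and triangle for replicates 1, 2 and 3), with lines through the group means to guide the eye. ORC6 alone stands out among treated ORC subunits, MCM7 is highest and MCM6 lowest of the hexamer in both groups, and RFC1 is the highest clamp loader subunit in DMSO but not in treated libraries.

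CDC45 and the 4 GINS subunits, which turn the ring into the active CMG helicase, all rose (median log2 fold change 2.14). GINS2 changed most, from 4.38, 3.31 and 3.87 CPM in DMSO to 32.7, 30.7 and 28.1 CPM in treated libraries, 7.93-fold (log2 2.99 ± 0.17 SE, adjusted p = 1.88e-07). GINS1 rose 4.6-fold and GINS3 4.41-fold. GINS4 changed least, from 8.38, 6.28 and 5.95 CPM to 13.8, 15.4 and 15.1 CPM, 2.08-fold (log2 1.05 ± 0.19 SE, adjusted p = 5.86e-04). The 4 subunits of the same tetramer therefore ranged from 2.08-fold to 7.93-fold. All lay wholly above the controls in CPM, as did 33.3% of all tested genes. CDC45, which bridges GINS and the MCM ring, stood at 16.6, 9.80 and 8.78 CPM in DMSO, where replicate 1 was well above the other two, and at 40.4, 30.2 and 35.1 CPM in treated libraries, 2.92-fold higher (log2 1.55 ± 0.24 SE, adjusted p = 3.04e-04). The TPM ratio of CDC45 to the mean of the 6 MCM subunits was 0.490, 0.330 and 0.325 in DMSO and 0.328, 0.279 and 0.349 in treated libraries, which overlapped. Over all 11 CMG genes the median log2 fold change was 1.75.

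The firing factors were split. MCM10, which helps the assembled helicase to start moving, went from 3.86, 3.40 and 3.72 CPM in DMSO to 21.5, 34.7 and 23.8 CPM in treated libraries, a 7.05-fold rise (log2 2.82 ± 0.20 SE, adjusted p = 7.00e-07). RECQL4, a RecQ-family helicase needed at initiation, rose 3.86-fold, from 20.1 ± 5.03 to 78.8 ± 10.3 CPM. TICRR (treslin), which brings CDC45 to origins, rose 2.06-fold, from 9.06 ± 0.505 to 19.1 ± 1.83 CPM. CDC7, the catalytic subunit of the firing kinase, rose less, 1.70-fold (log2 0.76 ± 0.15 SE, adjusted p = 0.00133), and did not pass on log2(TPM + 1), where its groups overlapped (log2 0.24, adjusted p = 0.164 in limma). DBF4, the subunit that activates CDC7, stood at 13.5, 9.45 and 11.5 CPM in DMSO and 12.2, 15.4 and 17.9 CPM in treated libraries and did not pass (log2 0.39 ± 0.20 SE, adjusted p = 0.115). Its groups overlapped because DMSO replicate 1 exceeded treated replicate 1. Without DMSO replicate 1, DBF4 passed as higher (log2 0.55, adjusted p = 0.025), and on log2(TPM + 1) its sign was negative (log2 -0.083). The TPM ratio of DBF4 to CDC7 was 1.04, 0.858 and 0.904 in DMSO and 0.649, 0.643 and 0.895 in treated libraries, again with overlap.

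Clamp and clamp loader transcripts rose with the exception of RFC1. PCNA, the ring that tethers polymerases to DNA, was measured at 44.2, 45.8 and 41.5 CPM in DMSO and at 192, 182 and 189 CPM in treated libraries. The replicates of both groups were tight, and PCNA rose 4.27-fold (log2 2.09 ± 0.096 SE, adjusted p = 6.98e-08). RFC2, a small loader subunit, went from 17.9, 14.6 and 12.9 CPM to 76.2, 58.1 and 69.3 CPM, 4.43-fold (log2 2.15 ± 0.15 SE, adjusted p = 6.54e-07). The other small subunits rose 3.03-fold (RFC4), 2.57-fold (RFC3) and 1.62-fold (RFC5). RFC3 was the most variable of them, at 20.3, 39.3 and 25.9 CPM in the treated libraries, and RFC5 did not pass on log2(TPM + 1) (log2 0.056, adjusted p = 0.708 in limma).

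RFC1 is the large subunit of this clamp loader, whereas RFC2 to RFC5 are shared with related complexes. RFC1 stood at 78.4, 73.7 and 67.1 CPM in DMSO and at 55.8, 76.8 and 64.2 CPM in treated libraries, where treated replicate 2 lay among the controls (log2 -0.19 ± 0.13 SE, adjusted p = 0.213). Without treated replicate 2, RFC1 passed as lower (log2 -0.32, adjusted p = 0.0254), as it did with library totals (log2 -0.50, adjusted p = 0.0049), without the filter on low counts (log2 -0.43, adjusted p = 0.0156) and on log2(TPM + 1) (log2 -0.63, adjusted p = 0.00545 in limma). In TPM, RFC1 was the highest of the 5 subunits in every DMSO library (34.2, 31.6 and 29.4) and came after RFC2, RFC4 and RFC3 in every treated library (16.9, 24.1 and 20.1). The ratio of RFC1 to the mean of RFC2 to RFC5 was 1.75, 2.06 and 1.86 in DMSO and 0.434, 0.602 and 0.497 in treated libraries. This ratio crossed 1 between the groups without overlap. The lack of overlap follows from the single levels, with RFC1 wholly below and the mean of RFC2 to RFC5 wholly above the controls in TPM. PCNA over the mean of RFC2 to RFC5 was 3.96, 5.15 and 4.61 in DMSO and 6.06, 5.78 and 5.90 in treated libraries, a smaller difference, also without overlap.

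The 9 polymerase genes all rose, but as a group by less than the helicase: their median log2 fold change was 1.02, beside 1.75 for the 11 CMG genes, a difference that was not tested. The 4 genes of polymerase alpha-primase lay within a narrow range, from 1.88-fold to 2.35-fold. POLA2, the regulatory subunit, went from 21.2, 15.3 and 14.3 CPM in DMSO to 44.1, 41.6 and 37.0 CPM in treated libraries (log2 1.24 ± 0.17 SE, adjusted p = 8.07e-05). PRIM1, the catalytic primase subunit, went from 6.22, 5.48 and 4.31 CPM to 9.75, 10.2 and 11.3 CPM (log2 0.91 ± 0.20 SE, adjusted p = 0.00204). The catalytic subunit POLA1 rose 2.03-fold and PRIM2, the large primase subunit, 2.01-fold. In all 4 genes the treated libraries lay above the controls in CPM, as in 33.3% of all tested genes.

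Within polymerase delta, catalytic and accessory subunits changed by different amounts. POLD1, which carries the catalytic site, went from 40.7, 31.9 and 31.4 CPM in DMSO to 145, 112 and 131 CPM in treated libraries, 3.73-fold (log2 1.90 ± 0.14 SE, adjusted p = 9.20e-07). POLD3, the accessory subunit that contacts PCNA, rose 1.89-fold, from 22.5 ± 1.05 to 42.2 ± 1.63 CPM. POLD2, the scaffold between them, went from 92.2, 88.4 and 76.0 CPM to 131, 112 and 115 CPM, the smallest rise of any member that passed, 1.39-fold (log2 0.48 ± 0.11 SE, adjusted p = 0.00318). That call was lost with library totals (log2 0.17, adjusted p = 0.185) and without a filter on low counts (log2 0.24, adjusted p = 0.219), and on log2(TPM + 1) the sign was negative (log2 -0.023). POLD3 over POLD1 in TPM was 0.550, 0.696 and 0.773 in DMSO and 0.274, 0.368 and 0.340 in treated libraries. POLD2 over POLD1, a ratio chosen after its values were seen, was 4.78, 5.84 and 5.07 and 1.86, 2.10 and 1.82. Both ratios were lower in every treated library than in every control, and so was POLA1 over POLD1, at 0.273, 0.307 and 0.361 and 0.143, 0.244 and 0.169.

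Polymerase epsilon genes rose together. POLE, its catalytic subunit, went from 24.2, 21.5 and 19.9 CPM in DMSO to 55.8, 64.9 and 57.3 CPM in treated libraries, 2.66-fold (log2 1.41 ± 0.12 SE, adjusted p = 2.60e-06). POLE2, which ties the polymerase to the helicase, was the lowest of all members in CPM, though not in TPM. It stood at 2.57, 1.82 and 1.64 CPM and 5.89, 3.98 and 6.13 CPM, and rose 2.64-fold (log2 1.40 ± 0.28 SE, adjusted p = 0.00119). Its standard error was the widest of the 46 genes. POLE over POLE2 in TPM was 1.88, 2.55 and 2.42 in DMSO and 2.02, 3.08 and 1.54 in treated libraries, which overlapped.

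RPA1, RPA2 and RPA3, the subunits of the single-strand binding protein, all rose. RPA1, the large DNA-binding subunit, went from 114, 109 and 104 CPM in DMSO to 319, 328 and 296 CPM in treated libraries, 2.88-fold (log2 1.53 ± 0.095 SE, adjusted p = 3.47e-07). RPA2, the subunit phosphorylated after replication stress, went from 37.4, 39.5 and 42.9 CPM to 66.2, 61.5 and 61.3 CPM, 1.59-fold (log2 0.67 ± 0.10 SE, adjusted p = 2.31e-04), and did not pass on log2(TPM + 1) (log2 0.18, adjusted p = 0.106 in limma). RPA3, the smallest subunit, rose 2.55-fold. RPA2 over RPA1 in TPM, a ratio chosen after its values were seen, was 0.757, 0.851 and 0.979 in DMSO and 0.486, 0.431 and 0.479 in treated libraries, without overlap.

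FEN1, LIG1 and DNA2 of Okazaki fragment processing rose, and FEN1 had the highest fold change of the 46 genes. FEN1, which cuts the displaced flap, went from 34.6, 27.6 and 25.6 CPM in DMSO to 241, 222 and 248 CPM in treated libraries, 8.01-fold (log2 3.0 ± 0.13 SE, adjusted p = 5.34e-08). The lowest treated library of FEN1 was far above the highest control. LIG1, the ligase that seals the nick, was measured at 16.1, 11.2 and 12.2 CPM and 63.6, 42.7 and 66.3 CPM and rose 4.43-fold (log2 2.15 ± 0.19 SE, adjusted p = 3.65e-06). DNA2, a nuclease for long flaps, went from 5.74, 4.97 and 4.46 CPM to 9.95, 14.2 and 11.1 CPM, 2.19-fold (log2 1.13 ± 0.20 SE, adjusted p = 5.51e-04). Summed in TPM, the 3 genes stood at 42.7 ± 7.29 in DMSO and 214 ± 14.7 in treated libraries (mean ± SD, n = 3).

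**Figure D4:**
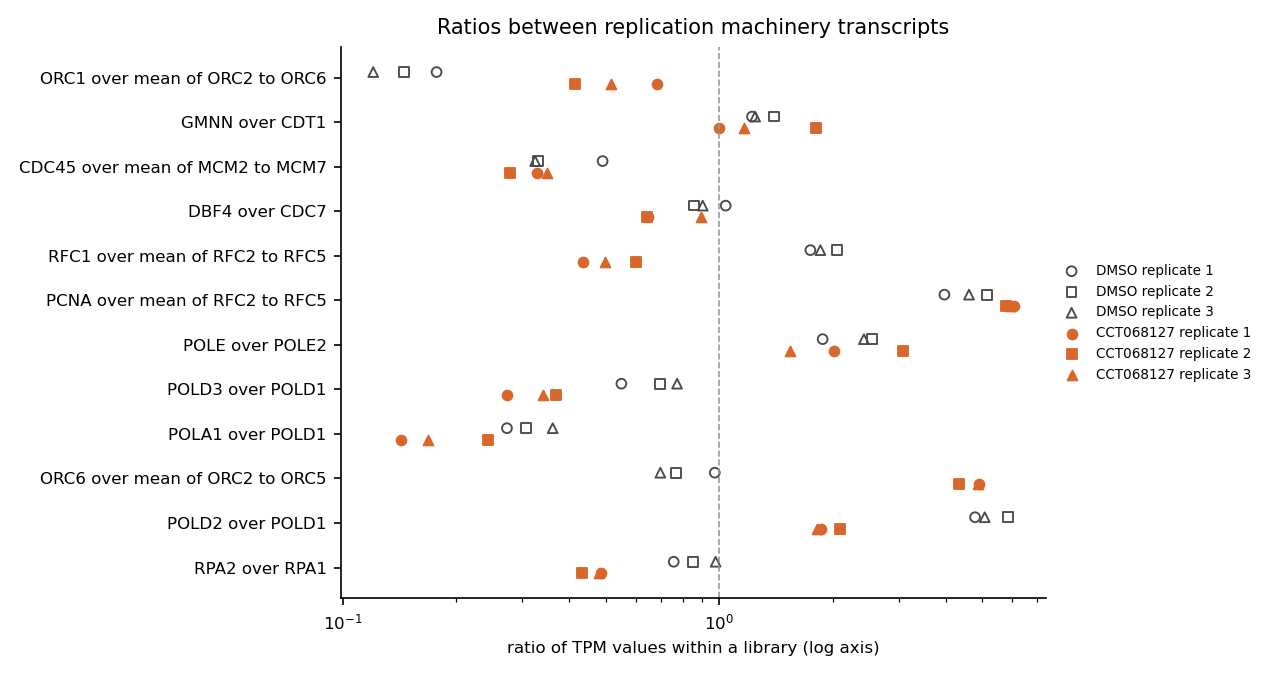
Ratios of deposited TPM values within each library (log axis; dashed line at 1), with open black symbols for DMSO and filled orange symbols for CCT068127 (circle, square and triangle for replicates 1, 2 and 3). ORC1, ORC6 and PCNA are higher and RFC1, POLD2, POLD3, POLA1 and RPA2 lower in every treated library relative to their partner subunits, while GMNN over CDT1, CDC45 over MCM, DBF4 over CDC7 and POLE over POLE2 overlap.

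Set side by side by role, the median log2 fold changes were 2.15 for Okazaki processing, 2.14 for CDC45 and GINS, 1.70 for the MCM hexamer and 1.48 for the clamp and clamp loader. They were 1.40 for polymerases delta and epsilon, 1.35 for RPA, 1.17 for MCM loading, 1.04 for the firing factors, 1.01 for polymerase alpha-primase and -0.13 for ORC. Roles hold 3 to 6 genes each, and the ranges of single genes overlapped widely between roles, so the order of these medians is a description. Over the 9 licensing genes (ORC, CDC6, CDT1 and GMNN) 5 rose, 2 fell and 2 did not pass, and those that did not rise were ORC2 to ORC5. All 11 CMG genes, all 9 polymerase genes of the list and all 3 Okazaki genes rose. The POLD2 call was lost with library totals, and POLD4, outside the list, fell. Of all tested genes, 31.9% rose and 32.8% fell. The ORC median stayed below 0 under every alternative tried, from -0.57 to -0.025, and the medians of the other 9 roles stayed above 0.

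E2F words were found in 19 of the 38 members with a promoter entry (50%), beside 6.78% of the 10412 tested genes with an entry and 3.31% of all 35116 windows of the table. The 26 occurrences lay mostly near the start, 20 of them between -100 and +50. Of the 19 members with a word, 18 rose, 17 of them at least 2-fold, and ORC3 did not pass. Of the 19 without a word, 14 rose, 11 of them at least 2-fold, ORC2 and ORC4 fell, and ORC5, DBF4 and RFC1 did not pass. Among all tested genes with a word, 124 of 706 were more than 2-fold higher, whether or not they passed. Over all tested genes, 31.9% rose, 15.5% at least 2-fold, and 32.8% fell. The median log2 fold change was 1.41 with a word and 1.04 without, beside 0.039 and -0.067 over all tested genes with and without a word. The NF-Y word CCAAT was present in 22 members (57.9%), beside 43.1% of tested genes and 34.6% of windows, and 11 members held both. TTTGAA was present in DBF4 alone (2.63% of members), beside 13.5% of tested genes and 15.2% of windows. These matches describe letters in a window of fixed size and were not tested, and a word is not evidence of binding.

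**Figure D5:**
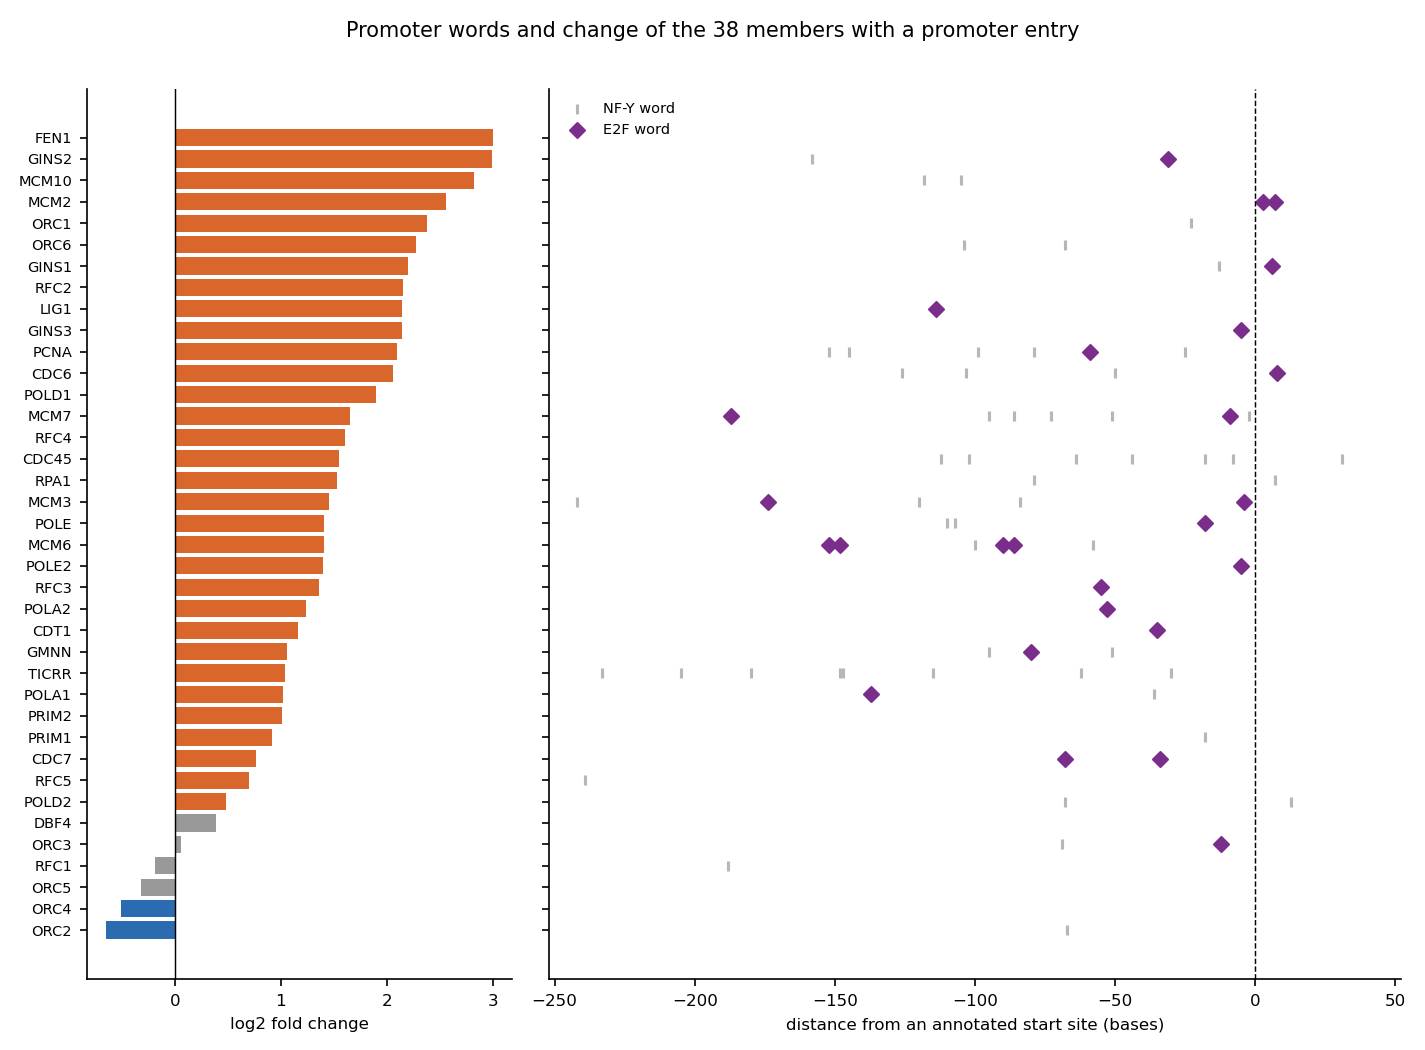
Log2 fold change (left, bars; orange rose, blue fell, grey did not pass) and positions of E2F words (purple diamonds) and the NF-Y word (grey ticks) in bases from an annotated start (right) for the 38 members with a RefSeq promoter entry, all windows of a gene on its row. E2F words lie mostly near the start, in members whose log2 fold change runs from 0.76 (CDC7) to 2.99 (GINS2) and in ORC3, but not in FEN1 at the top or in POLD2 and RFC5, the smallest rises.

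Related genes outside the 46 were compared by lists drawn up by function, likewise with earlier results of these data known. Of 26 other fork and origin genes, 18 rose, 4 fell and 4 did not pass (median log2 fold change 1.25), against 31.9% of all tested genes that rose and 32.8% that fell. The clearest rises were those of DTL, the adaptor of the ligase that degrades CDT1, from 11.7 ± 2.18 to 77.9 ± 8.23 CPM (log2 2.68 ± 0.15 SE, adjusted p = 1.94e-07), of CLSPN (claspin), a mediator of the replication checkpoint (log2 2.59 ± 0.15 SE, adjusted p = 2.23e-07), and of PCLAF, a PCNA-binding factor (log2 2.93 ± 0.18 SE, adjusted p = 4.51e-07). RNASEH2B, a subunit of the enzyme that removes ribonucleotides from DNA, fell (log2 -1.0 ± 0.15 SE, adjusted p = 1.67e-04), and so did POLD4, the smallest subunit of polymerase delta (log2 -0.85 ± 0.13 SE, adjusted p = 1.76e-04). Polymerase delta thus held a gene that fell beside the 3 that rose.

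Of 16 genes of deoxynucleotide synthesis and supply, 13 rose, 1 fell and 2 did not pass (median log2 fold change 1.30), read against the same shares of 31.9% and 32.8%. RRM1, the large subunit of ribonucleotide reductase, and TYMS, the thymidylate synthase, rose (log2 2.59 ± 0.15 SE, adjusted p = 2.29e-07, and log2 3.63 ± 0.21 SE, adjusted p = 4.76e-07). RRM2B, the reductase subunit induced by p53, fell (log2 -0.80 ± 0.13 SE, adjusted p = 3.05e-04). Of 20 mitotic kinase, kinetochore and spindle genes, 9 rose, 1 fell and 10 did not pass (median log2 fold change 0.42), again beside 31.9% and 32.8% of all tested genes. DMSO replicate 1 was high for these genes: their median log2 level relative to the DMSO mean was 0.40 there, and -0.20 and -0.19 in DMSO replicates 2 and 3. MAD2L1, of the spindle checkpoint, BIRC5 (survivin) and CDK1, the mitotic kinase, led the rises (log2 1.95 ± 0.18, 1.79 ± 0.17 and 1.27 ± 0.18 SE, with adjusted p = 5.02e-06, 7.94e-06 and 1.30e-04), and KIF20A, a mitotic kinesin, fell (log2 -0.58 ± 0.20 SE, adjusted p = 0.0289). In the limma fit on log2(TPM + 1), the median of the 20 mitotic genes was 0.0038, beside -0.46 over all genes of that fit. Among the genes that did not pass in edgeR, CCNB1, PLK1, AURKA and BUB1B passed there as lower. AURKB and KIF11 no longer passed as higher, whereas MAD2L1, CDC20 and CDK1 did. The difference between the replication and the mitotic genes was not tested.

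Reads shared with overlapping genes could touch some of these values. In the GENCODE v29 annotation of GRCh38, 17 of the 46 genes share exon bases with a gene on the opposite strand, at most 22.7% of them (MCM2 with AC023593.1), and 5 with a gene on the same strand, at most 35.1% (POLA2 with AP000944.2). Among overlapping genes that the deposited table lists, the largest opposite-strand share was 8.94% (MCM7 with AP4M1). Whether the counting used strand is not stated.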

How the data were processed

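Poly(A) RNA of T-24 cells was measured in 3 DMSO and 3 CCT068127 libraries (1 µM, 48 h), grouped and numbered by their titles. The authors deposited whole-number expected counts for each gene symbol, and a TPM table made with them. Per the submitters' processing notes, RSEM and Bowtie were used with the build hg38. Their versions, the annotation and the strandedness are not given in the sources used here. RSEM shares reads among similar transcripts, so values of overlapping genes are estimates. Total counts ranged from 1966742 to 411097626, and a count of 0 would allow up to 3 counts. This floor covers counting error only.

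The 46 members, the other gene lists and their tests were chosen with earlier results of these data known. Counts were fitted on the whole table with edgeR 4.0.16 in R 4.3.3: filterByExpr (minimum count 10, at least 3 libraries; 13597 of 38557 genes), TMM scaling, robust quasi-likelihood F test, two-sided, Benjamini-Hochberg adjustment over all 13597 genes, calls at 0.05. Standard errors were approximated from the F statistic. The pipeline was tested on simulated data in which few genes changed, unlike here, so that test does not bear on the scaling. CPM use TMM-scaled totals. TPM was used to compare genes within a library. Per-library values are given for the highest and lowest fold change of each role, for members that did not pass and for some others. From each other list up to 3 called genes in the more common direction and up to 2 in the other are named, by smallest adjusted p. List counts include genes whose own values are not reported here. Alternatives were other scalings, no filter, DESeq2 1.42.0, limma 3.58.1 (voom, and trend on log2 TPM with pseudocounts of 1 and 0.1, filtered at 1 TPM in 3 libraries, the former also unfiltered), a replicate block, leaving out each library, thinning the deep libraries and DMSO replicate 3 as the sole control. Replicate pairs within a group differed by more than counting noise (chi-square per degree of freedom 1.92 to 8.36), and each library counted once.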

Additional observations from a re-analysis of the deposited data

How the results depend on the processing

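The members' median log2 fold change was 1.40 as reported. It was 1.09 with library totals, 1.15 without a filter on low counts, 1.55 with DMSO replicate 3 as the sole control (effect size only), 0.87 on log2(TPM + 1), filtered or not, and 0.94 on log2(TPM + 0.1). With each library left out in turn it ran from 1.32 to 1.44. Members that rose numbered 39 with library totals and without the filter, 36 on log2(TPM + 1) and on log2(TPM + 0.1), 35 on log2(TPM + 1) without a filter, 40 to 41 with each library left out, and 40 under the other alternatives with a test. Members that fell numbered 2 as reported, 4 with library totals, without the filter and on log2(TPM + 1) without a filter, and 5 on filtered log2(TPM + 1) and log2(TPM + 0.1). With each library left out they ran from 2 to 4, the 4 without CCT068127 replicate 2, where ORC5 and RFC1 were added. In all, 35 members rose under each of the 17 alternatives with a test. The share of all genes that did so was not computed. Over all genes, 4333 rose and 4460 fell of 13597 as reported, and 2999 and 6581 with library totals. Without the filter 5519 rose and 6300 fell of 29138. On log2(TPM + 1) 2474 rose and 7472 fell of 14394, and without a filter 3039 and 7365 of 27872. On log2(TPM + 0.1) 2444 rose and 7299 fell of 14394. With each library left out, 3848 to 4464 rose and 3888 to 4800 fell.

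ORC3 changed sign to -0.25 with library totals, -0.18 without the filter, -0.39 on log2(TPM + 1), filtered or not, and -0.42 on log2(TPM + 0.1). With each library left out it ran from -0.049 (without CCT068127 replicate 3) to 0.17. DBF4 changed sign to -0.083 on log2(TPM + 1), filtered or not, and to -0.095 on log2(TPM + 0.1), and POLD2 to -0.023 on all 3 TPM scales. The cause was not tested. With the replicate block, 40 members rose and 2 fell at a median of 1.41, and no call changed. Deviations of same-numbered libraries from their group means had correlations of 0.031, -0.0087 and 0.0064. These ran over all 38557 genes, also those that failed the filter, whose noise can hide a pairing, so they cannot decide it. The labels state no pairing, and the numbers were not taken to pair the libraries. Depth limits the low genes most: POLE2 had 7 counts in the shallowest library.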

Other observations

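DMSO replicate 1 also stood apart in the mitotic list. The 20 mitotic genes summed to 930.1 TPM in DMSO replicate 1, beside 592 and 607.3 TPM in DMSO replicates 2 and 3 and 745.2, 784 and 758 TPM in CCT068127 replicates 1 to 3. The 46 replication genes summed to 1077 TPM in DMSO replicate 1, 937 and 919 TPM in DMSO replicates 2 and 3, and 2105, 2022 and 2059 TPM in CCT068127 replicates 1 to 3. The treated libraries thus overlapped the controls for the mitotic sum, through DMSO replicate 1 alone, and not for the replication sum. Nor did they overlap for the 26 other fork and origin genes (688 to 790 TPM in DMSO, 872 to 920 TPM treated). The same held for the 16 deoxynucleotide genes (1074 to 1226 TPM in DMSO, 2660 to 3015 TPM treated).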
